A study of Mus musculus with 8 samples.

Results

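The Hox genes of the mouse were followed gland by gland in bulk RNA of mammary glands that had received small extracellular vesicles (sEVs). The members were all 39 protein-coding genes whose symbol is Hoxa, Hoxb, Hoxc or Hoxd with a number, of 51789 genes in the count table, and all 39 were found. The glands came from 3 groups: sEVCTRL (n = 3), which received vesicles prepared from medium that had held no cells, sEVNORM (n = 3), which received vesicles of AT3 cells kept in normoxia, and sEVHYP (n = 2), which received vesicles of AT3 cells kept in hypoxia. AT3 is a metastatic mouse mammary adenocarcinoma line, the recipients were female C57BL/6 mice (the methods list an albino C57BL/6 stock), the injected gland was the abdominal one, and the RNA was taken after 6 weeks of exposure. No gland without an injection was measured, so all groups share the injection itself. The study speaks of animals per group, but the labels do not say that each library is a separate animal, and P values measure only the spread between these libraries, which may be technical. The age of the mice is not given in the sources used here.

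Hox genes encode homeodomain transcription factors. They lie in 4 clusters, Hoxa, Hoxb, Hoxc and Hoxd, and a gene's number gives its paralogue group, which follows its place in the cluster. In the embryo, low numbers are used from the hindbrain and neck downward and high numbers only in the lumbar, sacral and tail regions and at the ends of the limbs, an order known as collinearity. Cells of adult connective tissue, skin, fat and muscle keep much of the Hox pattern of the place where they arose, so that the set of active Hox genes works as a positional record. In the mammary gland, Hoxc8 is known for its part in placing mammary buds along the flank, and Hoxa9, Hoxb9 and Hoxd9 are known for their joint part in development of the gland at pregnancy.

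What the family shares is the homeobox, the coding stretch for the DNA-binding homeodomain. The windows of 48 bases below run 5′ to 3′ and come from the transcripts of GENCODE M21 (GRCm38). Capitals mark the 18 bases of the most conserved part of the recognition helix. Shown are the members with the highest level per kb in each cluster (Hoxc8, Hoxd8, Hoxb8 and Hoxa5), the most posterior members with sizeable levels (Hoxc10 and Hoxd10), and a pair from the posterior end that was at or near 0.
Hoxc8: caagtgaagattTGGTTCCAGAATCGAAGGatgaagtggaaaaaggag
Hoxd8: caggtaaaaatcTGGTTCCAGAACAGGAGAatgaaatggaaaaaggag
Hoxb8: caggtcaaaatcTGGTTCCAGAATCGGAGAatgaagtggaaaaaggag
Hoxa5: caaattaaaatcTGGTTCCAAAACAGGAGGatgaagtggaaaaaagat
Hoxc10: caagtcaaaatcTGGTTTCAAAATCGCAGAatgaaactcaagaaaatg
Hoxd10: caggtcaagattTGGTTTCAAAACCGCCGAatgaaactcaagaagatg
Hoxc13: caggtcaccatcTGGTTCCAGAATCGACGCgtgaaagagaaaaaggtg
Hoxd13: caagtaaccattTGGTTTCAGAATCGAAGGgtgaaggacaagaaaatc
All 39 members hold this stretch, in 30 distinct versions of the 18 bases, and all 39 windows of 48 bases are distinct. The codon after the capitals is atg in 35 members and gtc or gtg in the 4 members of group 13. The 42 pairs within a paralogue group differ at a median of 7 of the 48 bases (range 1 to 13), and the 172 pairs within a cluster at a median of 12 (range 1 to 19). Hoxb8 and Hoxd8 differ at 4, Hoxc8 and Hoxd8 at 9, and Hoxc13 and Hoxd13 at 12. No member shared 50-base stretches with a gene on another chromosome over more than 1.27% of its sequence.

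Levels between genes were compared as CPM (counts relative to library size, scaled by TMM factors) divided by the exon length in kb. The libraries held 18194996 to 24622569 counts, and all Hox genes together took 0.0170% to 0.0270% of them, or 3812 to 5826 counts a library. A count of 3, taken as the floor for a gene at 0, equalled 0.121 to 0.164 CPM. Floors cover counting error only. The RNA came from whole glands, so fewer cells of a type and less RNA per cell cannot be told apart. Summed luminal epithelial markers stood at 1033 to 2197 CPM and white adipocyte markers at 6622 to 12753 CPM, so both tissues of the gland were present in every library. Skeletal muscle markers, which do not belong to the gland, ranged from 36.6 CPM in sEVNORM 2 to 14794 CPM in sEVHYP 2. Markers of skin stood at 64.5 CPM in sEVNORM 3 and at 8.65 to 12.9 CPM in the others.

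The glands carried a Hox code that ended between paralogue groups 10 and 11. Of the 30 members of groups 1 to 10, 27 passed the filter on low counts, and of the 9 members of groups 11 to 13, 0 passed. The former held 38155 counts over all libraries and the latter 15. Hoxa13, Hoxb13, Hoxc12, Hoxd11, Hoxd12 and Hoxd13 were at 0 in all 8 libraries, as was Hoxd1 at the other end. Hoxa11 had 2 counts, all in sEVNORM 2, and Hoxc11 had at most 2 in any library. Those 9 genes therefore include 8 that were not detected above the floor. The exception was Hoxc13, known from hair follicles and nails, with 6 counts in sEVNORM 3 and 0 in the others. The same library was the highest for 8 of 9 skin markers: Krt10, a keratin of the upper epidermis, stood there at 37.8 CPM against 5.42 to 8.94 CPM elsewhere, Krtdap at 9.56 CPM against 0.0443 to 0.535 CPM, and Krt25, a hair follicle keratin, at 1.04 CPM against 0 in the other 7. Ivl was nearly as high in sEVNORM 2 (1.06 against 1.18 CPM), and Krt71, another hair follicle keratin, was higher in sEVCTRL 3 (0.328 CPM) than in sEVNORM 3 (0.189 CPM). The part of skin in the Hoxc13 counts was not tested. In groups 1 to 10, the members that did not pass the filter were Hoxa6 with 1 to 6 counts a library, Hoxb1 with at most 2, and Hoxd1.

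**Figure D1:**
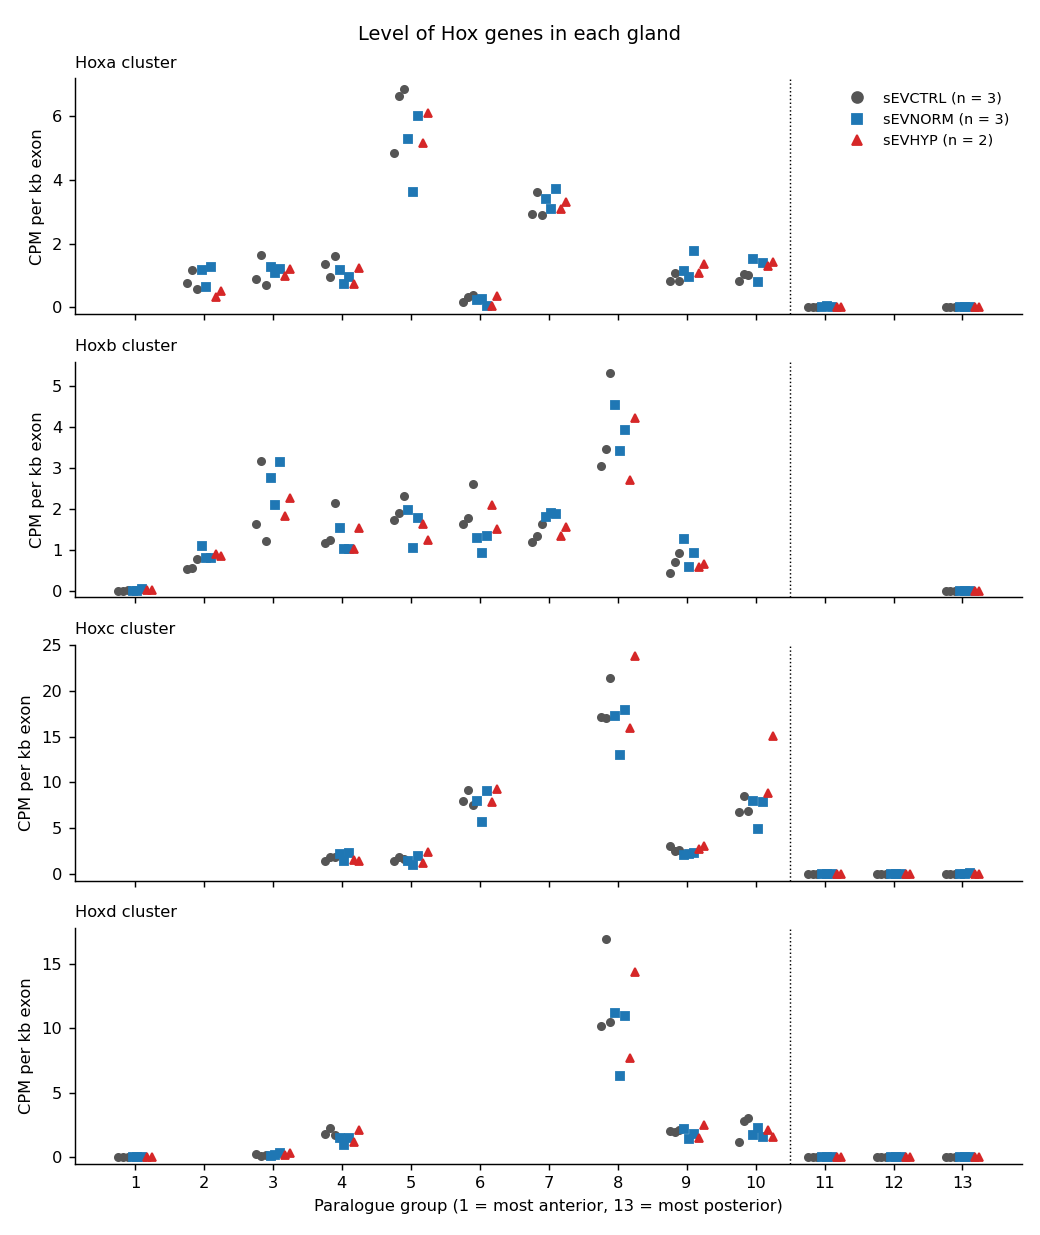
Level of 38 of the 39 Hox genes (vertical axis, CPM per kb of exon, linear and different for each cluster) against their paralogue group (horizontal axis), with 1 point a gene for each of the 8 glands; circles are sEVCTRL, squares sEVNORM and triangles sEVHYP, and the dotted line lies between groups 10 and 11. Group 8 is the highest in the Hoxb, Hoxc and Hoxd clusters, Hoxa5 leads the Hoxa cluster, and no gene right of the line passes 0.115 CPM per kb.

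In the Hoxd cluster the change from a measured gene to one at 0 falls between the neighbours Hoxd10 and Hoxd11. Hoxd10 held 42 to 111 counts a library and Hoxd11 held 0. Their promoter windows (RefSeq, GRCm38.p6, 250 bases before to 50 after the start) are shown with each CG pair in capitals, since CG-rich starts are the ones that polycomb complexes are known to bind.
Hoxd10, chr2:74691641-74691940, + strand: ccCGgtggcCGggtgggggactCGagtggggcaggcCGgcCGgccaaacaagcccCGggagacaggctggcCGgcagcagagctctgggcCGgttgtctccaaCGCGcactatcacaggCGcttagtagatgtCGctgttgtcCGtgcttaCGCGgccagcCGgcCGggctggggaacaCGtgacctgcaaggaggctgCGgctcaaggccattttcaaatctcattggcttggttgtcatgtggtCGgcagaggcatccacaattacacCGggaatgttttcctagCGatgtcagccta
Hoxd11, chr2:74679308-74679607, + strand: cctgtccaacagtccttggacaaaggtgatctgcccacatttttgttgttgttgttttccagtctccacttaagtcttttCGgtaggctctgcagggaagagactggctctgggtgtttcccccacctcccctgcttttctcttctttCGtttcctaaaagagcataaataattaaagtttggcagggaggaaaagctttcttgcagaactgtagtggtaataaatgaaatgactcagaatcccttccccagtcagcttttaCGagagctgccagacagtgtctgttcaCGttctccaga
The window of Hoxd10 holds 22 CG pairs and that of Hoxd11 holds 4. For each gene the window nearest the outer end of the whole gene was taken. Hoxd11 has 4212 exon bases but its longest coding transcript has 1111, so its window may not be the start of that transcript. Promoter windows matched 22 of the 39 members, with a median of 13.5 CG pairs (range 4 to 45), beside a median of 7 over 32851 promoters. Of other members at 0 in every library, Hoxa13 and Hoxd13 have 45 and 37 pairs, and the well expressed Hoxd8 has 6. The TATAAA motif, searched on both strands, was in 3 of the 22 windows (Hoxb8, Hoxd4 and Hoxd13) and in 13.6% of all promoters.

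The highest member of all was Hoxc8, with a median of 17.2 CPM per kb, and its level was 17.1, 17.1 and 21.4 in sEVCTRL, 17.2, 13.0 and 17.9 in sEVNORM and 15.998 and 23.8 in sEVHYP. Hoxd8 followed with a median of 10.7 CPM per kb: 10.1, 16.9 and 10.51 in sEVCTRL, 11.2, 6.33 and 10.9 in sEVNORM and 7.68 and 14.4 in sEVHYP. Hoxc8 was above Hoxd8 in 8 of 8 glands, although the ranges of the levels met. Next came Hoxc6 (median 7.97 CPM per kb, range 5.71 to 9.34) and Hoxc10 (median 7.91, range 4.97 to 15.03), which did not differ beyond their spread, with Hoxc6 higher in 6 of 8 glands. Hoxa5 had a median of 5.65 CPM per kb, with 4.84, 6.63 and 6.85 in sEVCTRL, 5.29, 3.64 and 5.998 in sEVNORM and 5.17 and 6.10 in sEVHYP. Hoxb8, the highest of its cluster, had a median of 3.68 CPM per kb, with 3.05, 3.44 and 5.32 in sEVCTRL, 4.53, 3.42 and 3.91 in sEVNORM and 2.69 and 4.20 in sEVHYP. For Hoxc8, Hoxd8, Hoxc6, Hoxa5 and Hoxb8 the 3 groups overlapped, and the lowest gland was sEVNORM 2 for Hoxc8, Hoxd8, Hoxc6, Hoxc10 and Hoxa5. From Hoxa7 (median 3.20 CPM per kb) down to Hoxb9 (0.677), the order was close, and neighbours exchanged places in at least 1 gland. Hoxd3 was the lowest tested member, at 0.175 CPM per kb. Dividing by the longest protein-coding transcript in place of all exons kept Hoxc8 first, at 26.1 CPM per kb, but put Hoxc6 (12.1) above Hoxd8 (11.2).

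Seen by cluster, the Hoxc genes made up 42.3% to 51.6% of the summed Hox level per kb, the Hoxd genes 16.5% to 24.8%, the Hoxa genes 15.8% to 20.01% and the Hoxb genes 12.9% to 18.4%. By paralogue group, group 8 (Hoxb8, Hoxc8 and Hoxd8) held 34.3% to 40.4%, group 10 held 11.3% to 16.9% and group 6 held 10.51% to 13.0%. The 3 genes of group 8 stood well apart from the next gene toward the tail: the ranges of Hoxb8 and Hoxb9, of Hoxc8 and Hoxc9 and of Hoxd8 and Hoxd9 over the 8 glands did not meet. Levels did not fall evenly toward the border. Hoxc10 was above Hoxc9 in 8 of 8 glands, by 2.23 to 4.98 times, and their ranges did not meet, whereas Hoxd10 was above Hoxd9 in 4 of 8. Hoxc10 and Hoxc5 have 166 exon bases in common on the same strand, 8.70% of the exon length of Hoxc10, and Hoxd3 and Hoxd4 share 62.3% and 52.3% of their exon bases with each other or with Gm28230, so the split of reads between such pairs was an estimate of the authors' counting program. Genes on the opposite strand cover 52.9% of the exon bases of Hoxb3, 27.3% of Hoxb2, 25.4% of Hoxa3 and 20.4% of Hoxa7. The strand setting of the counting is not given, so their reads may enter these levels.

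The share of Hox expression from groups 9 to 13, called the posterior share, sets these groups against the sum of all members. Whether it reads the position of a gland along the body axis was not tested. This share was chosen with results of these data known, so it is given with no test. It was 19.4%, 19.2% and 18.9% in sEVCTRL (mean 19.2 ± 0.243, SD), 20.1%, 20.8% and 19.7% in sEVNORM (20.2 ± 0.560) and 23.6% and 24.0% in sEVHYP (23.8 ± 0.310). The 3 groups did not overlap, and the sEVHYP glands were the highest. Of the summed difference between sEVHYP and sEVCTRL, Hoxc10 gave 4.52 CPM per kb, and the next, Hoxa10, gave 0.392. With Hoxc10 left out of both sums, a calculation chosen after the values were seen, the share was 11.7%, 11.5% and 12.4% in sEVCTRL, 12.3%, 14.1% and 12.01% in sEVNORM and 13.7% and 11.6% in sEVHYP. The groups then overlapped, and sEVHYP 2 lay inside the range of sEVCTRL. Hoxa10 was at 1.36 ± 0.107 CPM per kb in sEVHYP against 0.973 ± 0.118 in sEVCTRL, Hoxd10 at 1.84 ± 0.355 against 2.33 ± 1.003, Hoxc9 at 2.88 ± 0.201 against 2.73 ± 0.282, and Hoxd9 at 2.03 ± 0.713 against 2.02 ± 0.0486. The ratio of Hoxc10 to Hoxc8, both per kb, was 0.397, 0.499 and 0.322 in sEVCTRL, 0.462, 0.382 and 0.439 in sEVNORM and 0.550 and 0.631 in sEVHYP.

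**Figure D2:**
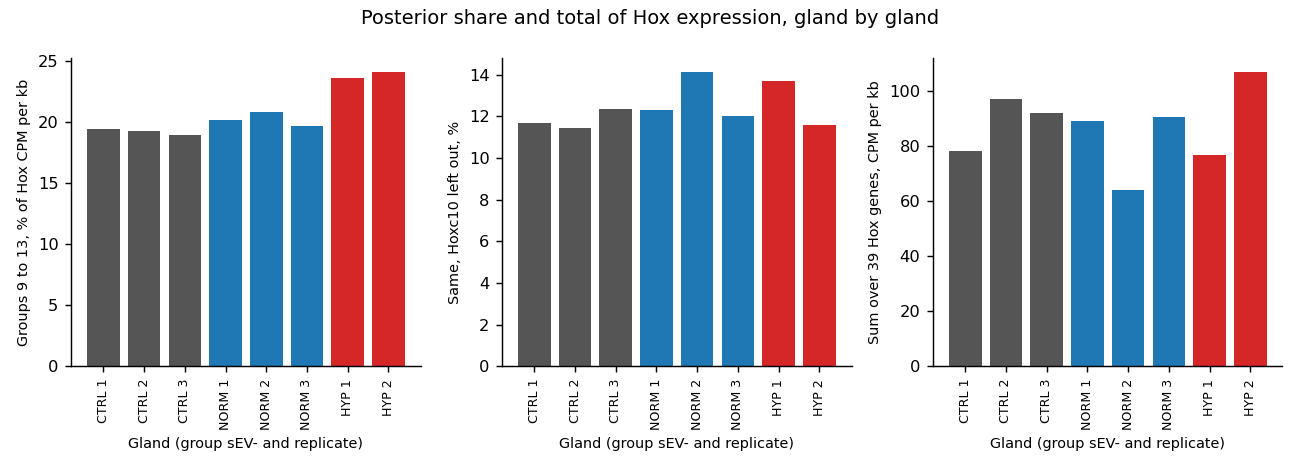
Bar charts with 1 bar for each of the 8 glands (grey sEVCTRL, blue sEVNORM, red sEVHYP): the percentage of the summed Hox level from groups 9 to 13, the same percentage with Hoxc10 left out, and the summed level of all Hox genes in CPM per kb. The sEVHYP bars are the highest on the left, at 23.6% and 24.0%, and lie among the others in the middle chart, at 13.7% and 11.6%.

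The comparison of sEVHYP with sEVCTRL asks what vesicles of hypoxic tumor cells added to those of a control preparation. Among the 27 tested Hox genes, 1 had an unadjusted P under 0.05, the threshold used in the study, beside 2.45% of all 17858 genes tested (edgeR quasi-likelihood test). That gene was Hoxc10, which helps to place the lumbar vertebrae and the motor neurons of the hindlimb and is known from fat depots of the lower body. Its level was 6.81, 8.50 and 6.88 CPM per kb in sEVCTRL, 7.96, 4.97 and 7.86 in sEVNORM and 8.81 and 15.03 in sEVHYP. Both sEVHYP glands were above all others, the first by little. The log2 fold change was 0.69 (SE 0.29), 1.61-fold, with an unadjusted P of 0.0395 and an adjusted P of 1.00. Leaving out sEVHYP 2 gave a log2 fold change of 0.24 (unadjusted P of 0.489), and leaving out sEVCTRL 1 or sEVCTRL 3 gave 0.63 (unadjusted P of 0.0951) and 0.64 (unadjusted P of 0.0959). The 2 sEVHYP glands were also among the 3 with the most skeletal muscle RNA. With the skeletal muscle score as a covariate the log2 fold change was 0.51 (unadjusted P of 0.0540). Of the 27 genes, 15 had a log2 fold change above 0 and 12 below 0, with a median of 0.02 against a median of -0.02 over all genes. Markers of brown adipocytes, with 2 of 7 tested genes (Dio2 and Ucp1) past the threshold, summed to 56.1 and 93.0 CPM in sEVHYP and to 31.3 to 54.8 CPM in the other 6 glands. The 54.8 CPM was that of sEVCTRL 2, the other gland of the 3 with the most skeletal muscle RNA. Whether muscle contributed to the brown adipocyte sum was not tested. Basal epithelial markers, with 2 of 8 (Cnn1 and Oxtr), summed to 519 and 523 CPM against 320 to 492 CPM. The part of these cell types in the level of Hoxc10 was not tested. The groups did not overlap for 5 of the 27 (Hoxa10, Hoxb2 and Hoxc10 higher, Hoxa2 and Hoxb5 lower), beside 12.8% of all genes.

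Against sEVNORM, which differs by design in the oxygen at which the vesicles were made, 2 of the 27 Hox genes had an unadjusted P under 0.05, beside 3.95% of all genes. The glands of these groups also differed in skeletal muscle markers, at 10139 ± 6583 CPM (SD) in sEVHYP and 1759 ± 1740 CPM in sEVNORM. Hoxc10 was 1.72-fold higher in sEVHYP (log2 0.78, SE 0.29, unadjusted P of 0.0228, adjusted P = 1.00). The log2 fold change was 0.34 (unadjusted P of 0.333) without sEVHYP 2, 0.59 (unadjusted P of 0.0650) without sEVNORM 2, the gland with the least muscle RNA, and 0.45 (unadjusted P of 0.120) with the muscle score as a covariate. Hoxa2, a gene of the hindbrain and second pharyngeal arch with a low level here, was 2.44-fold lower (log2 -1.29, SE 0.51, unadjusted P of 0.0312, adjusted P = 1.00). Its level was 0.773, 1.18 and 0.586 CPM per kb in sEVCTRL, 1.18, 0.649 and 1.28 in sEVNORM and 0.336 and 0.513 in sEVHYP, which comes from 13 and 17 counts. Both sEVHYP glands lay below all others, and sEVCTRL 3 and sEVNORM 2 lay close above them. Without sEVNORM 1, sEVNORM 3 or sEVHYP 1 the P of Hoxa2 was 0.0763, 0.0874 and 0.168. Against sEVCTRL the log2 fold change of Hoxa2 was -1.003 (SE 0.51, unadjusted P of 0.0784), and -1.22 (unadjusted P of 0.0250) with the muscle covariate. Of its exon bases, 15.04% also belong to Gm28308. In this comparison 14 of the 27 genes were above 0 and 13 below, with a median log2 fold change of 0.04 against -0.02 over all genes. The groups did not overlap for 6 of the 27 (among them Hoxb6, Hoxc9 and Hoxc10 higher, Hoxa2 and Hoxb7 lower), beside 22.8% of all genes. Both comparisons use the same 2 sEVHYP glands, so their values for Hoxc10 and Hoxa2 are not independent.

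**Figure D3:**
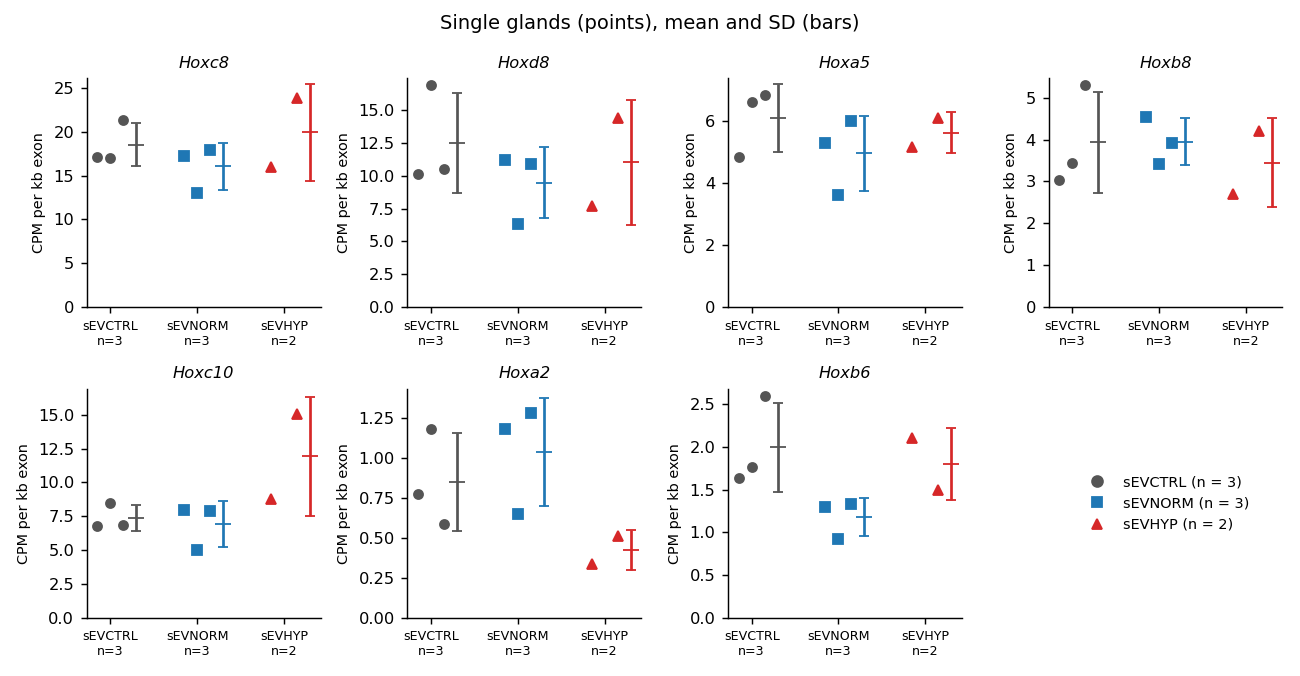
Level of 7 Hox genes in single glands (vertical axis, CPM per kb of exon; points) by group (horizontal axis), with the mean and SD of each group as a bar beside the points. The 2 sEVHYP glands lie above the others for Hoxc10 and below them for Hoxa2, and the groups overlap for Hoxc8, Hoxd8, Hoxa5 and Hoxb8.

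Vesicles of normoxic tumor cells were compared with the control preparation as well, and 2 of the 27 Hox genes had an unadjusted P under 0.05, beside 1.62% of all genes. The one that was lower in sEVNORM was Hoxb6, a member from the trunk part of its cluster, which stood at 1.63, 1.76 and 2.59 CPM per kb in sEVCTRL, at 1.29, 0.925 and 1.32 in sEVNORM and at 2.10 and 1.499 in sEVHYP. It was 1.69-fold lower in sEVNORM (log2 -0.75, SE 0.31, unadjusted P of 0.0356, adjusted P = 1.00). The sEVNORM glands lay below the sEVCTRL glands, with sEVNORM 3 close to sEVCTRL 1. The call was lost without any 1 of the 3 sEVNORM glands (log2 -0.84 to -0.61, unadjusted P of 0.0516 to 0.115) and without sEVCTRL 3 (log2 -0.52, unadjusted P of 0.129). With the muscle covariate the log2 fold change was -0.68 (unadjusted P of 0.0647). Of the 27 genes, 13 were above 0 and 14 below, and the median log2 fold change was -0.09 against -0.0008 over all genes. The groups did not overlap for 6 of the 27 (among them Hoxb2 and Hoxb7 higher, Hoxb6, Hoxc9 and Hoxd4 lower), beside 4.86% of all genes. With edgeR or DESeq2, 0 Hox genes had an adjusted P under 0.05 in any of the 3 comparisons.

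**Figure D4:**
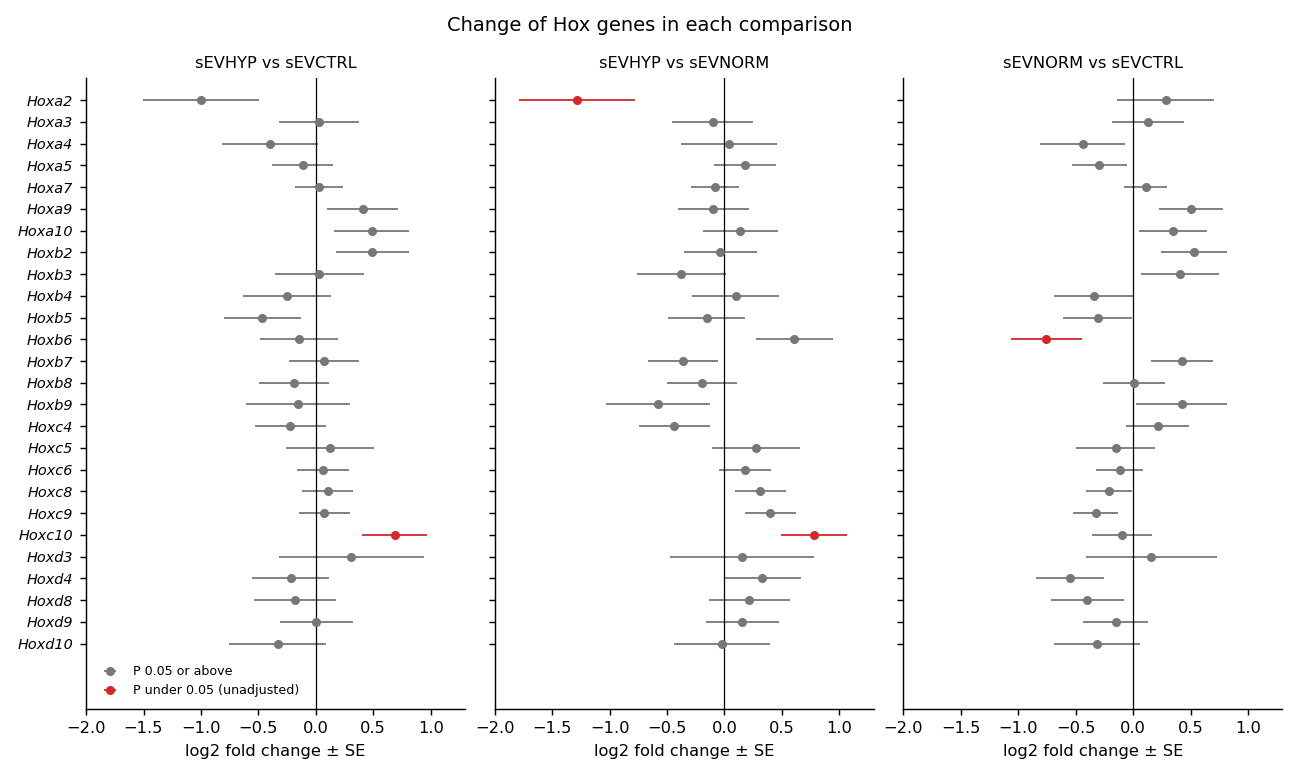
Log2 fold change of 26 of the 27 tested Hox genes (horizontal axis; points, with bars for 1 SE) in the 3 comparisons, with genes on the vertical axis ordered by cluster and number. Red points have an unadjusted P under 0.05: Hoxc10 (0.69) against sEVCTRL, Hoxc10 (0.78) and Hoxa2 (-1.29) against sEVNORM, and Hoxb6 (-0.75) in sEVNORM against sEVCTRL.

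The total varied between glands of the same group. The summed level of all 39 Hox genes was 78.0, 96.9 and 92.1 CPM per kb in sEVCTRL, 88.9, 64.1 and 90.3 in sEVNORM and 76.8 and 107 in sEVHYP. The highest and the lowest gland thus belonged to the treated groups, and the groups overlapped. sEVNORM 2 was the lowest of the 8 glands for 12 of the 27 tested Hox genes and the highest for 1. Its muscle markers were also the lowest, with Myh4, the fast myosin of limb and body wall muscle, at 1.95 CPM against 184 to 4106 CPM in the others. sEVHYP 2 had the highest total and the most muscle RNA, with Myh4 at 4106 CPM, and it was the highest gland for Hoxc8 and Hoxc10. sEVCTRL 2, the gland with the second most muscle RNA (10227 CPM over the list), had the second highest total and a Hoxc10 level of 8.50 CPM per kb. sEVHYP 1 came next in muscle RNA (5484 CPM), but its total of 76.8 CPM per kb was below all glands except sEVNORM 2. In sEVNORM 2, where the muscle list was at 36.6 CPM, Hoxc8 stood at 13.0 and Hoxc10 at 4.97 CPM per kb, and the posterior share was 20.8%. Other tissues differed in the same glands. Markers of B cells and lymph node summed to 2659 CPM in sEVNORM 2, the most of the 8 glands, and to 777 CPM in sEVHYP 2, the least. White adipocyte markers were lowest in sEVNORM 2, at 6622 CPM. The part of muscle in the difference between glands was not tested, since the covariate above only adjusted the comparisons of groups, gene by gene. The part of these other tissues was not tested either. The spread of a Hox gene between replicates, as the biological coefficient of variation, had a median of 0.280 over the 27 genes (0.200 for Hoxc8 to 0.449 for Hoxd3), beside 0.252 over all tested genes. Hoxa7 was the steadiest member across the 8 glands, with a coefficient of variation of 9.44% and a level of 2.89 to 3.72 CPM per kb.

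**Figure D5:**
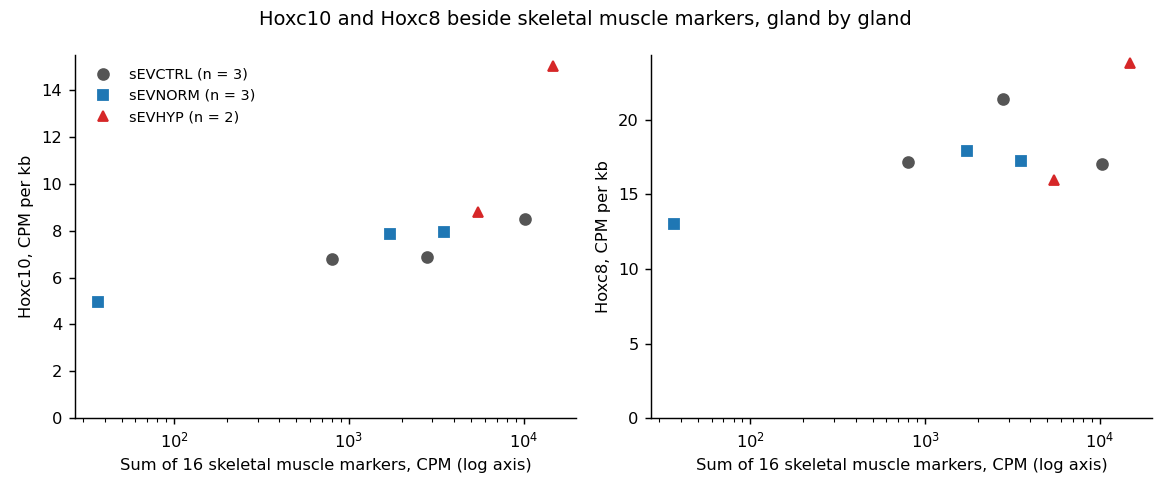
Level of Hoxc10 (left) and Hoxc8 (right) in CPM per kb against the summed CPM of 16 skeletal muscle markers (logarithmic horizontal axis), with 1 point per gland. The gland with the least muscle RNA, sEVNORM 2 at 36.6 CPM, is the lowest for both genes, and the gland with the most, sEVHYP 2 at 14794 CPM, is the highest for both. The remaining glands, from least to most muscle RNA, are sEVCTRL 1, sEVNORM 3, sEVCTRL 3, sEVNORM 1, sEVHYP 1 and sEVCTRL 2. In that order Hoxc8 is at 17.1, 17.9, 21.4, 17.2, 15.998 and 17.1 CPM per kb. Hoxc10 is at 6.81, 7.86, 6.88, 7.96, 8.81 and 8.50 CPM per kb.

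Hox proteins bind DNA together with TALE homeodomain partners of the Pbx, Meis and Pknox families. All 9 partners were tested and 0 had an unadjusted P under 0.05 in any comparison with edgeR (with DESeq2, 1 did: Pknox2 in sEVHYP against sEVNORM). Against sEVCTRL they had a median log2 fold change of -0.08 in sEVHYP and -0.14 in sEVNORM. Their summed level was 166 to 206 CPM. Upstream, retinoic acid switches on anterior Hox genes and Cdx proteins switch on trunk members in the embryo. Of 17 such genes, 12 were tested. Cdx1, Cdx2 and Cdx4 were at 0 in all libraries, the receptors Rara, Rarb and Rarg were at 8.71 to 14.4, 4.43 to 14.7 and 9.57 to 15.3 CPM, and 0 of the 12 had an unadjusted P under 0.05 against sEVCTRL, with edgeR or DESeq2. Crabp1, a retinoic acid carrier, was higher in sEVHYP than in sEVNORM (log2 1.70, SE 0.68, unadjusted P of 0.0336), mostly through sEVHYP 1 at 2.66 CPM. Polycomb and trithorax proteins keep Hox genes off or on. All 26 listed were tested and 0 had an unadjusted P under 0.05 in any comparison, with edgeR or DESeq2. Levels were measurable throughout, with Ezh2 at 19.1 to 35.3 CPM and Kmt2a at 147 to 204 CPM.

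The clusters also give rise to noncoding RNA. Of 21 listed transcripts 19 were in the table and 6 were tested. Those that lie among the posterior genes were at or near 0, as the genes beside them were: Hottip and Hoxa11os had no counts and Hotair reached at most 0.0946 CPM. Hoxaas3, which lies in the Hoxa cluster, was lower in sEVNORM than in sEVCTRL (log2 -1.11, SE 0.46, unadjusted P of 0.0372), at 0.442, 0.488 and 0.757 CPM against 1.17, 1.28 and 1.204 CPM, and it did not pass with DESeq2. The miRNA genes Mir10a, Mir10b, Mir196a-1, Mir196a-2, Mir196b and Mir615 were at 0 in these polyA libraries, which do not measure mature miRNAs. The 3′ ends of several members carry matches to 1 of them, and the sites of Hoxc8, the highest member, are shown. The mature sequence of miR-196a-5p, from RefSeq (GRCm38.p6) and encoded between Hoxc10 and Hoxc9 at chr15:102973365-102973386 and also in the Hoxb cluster, is given with its seed (bases 2 to 8) in capitals, followed by sites in 3′ untranslated regions. In the sites, capitals mark bases equal to the complement of the miRNA aligned without gaps, so G:U pairs stay in lower case.
miR-196a-5p: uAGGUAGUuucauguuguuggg
Hoxc8 site: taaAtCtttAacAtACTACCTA
Hoxc8 second site: CaCtcacAacTctAACTACCTg
Hoxa7 site: aCtActAgCcctAAACTACCTA
A match to the seed (ACTACCT) was found in 9 of the 39 Hox genes, or 23.1%, beside 6.10% of 21045 genes, among them Hoxa4, Hoxa5, Hoxa7, Hoxa9, Hoxb1, Hoxb6, Hoxb7 and Hoxc8. A match to the seed of miR-10a-5p (ACAGGGT) was in 4 of the 39, or 10.3%, beside 12.5% of all genes. Only exact matches were counted, so a site with a G:U pair in the seed, in Hoxb8 or any other member, would be missed. Hoxb6, lower in sEVNORM than in sEVCTRL, is among those with a miR-196a-5p match. These matches describe sequence and were not linked to levels here.

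Other transcription factors that mark place along the limbs and body wall were set beside the Hox genes. Of 22 listed, 13 were tested. Tbx4 and Pitx1, which mark the hindlimb, reached at most 0.274 and 0.137 CPM, and Tbx5, a forelimb and chest wall gene, stood at 0.254 to 1.93 CPM. Prrx1, Shox2 and Tbx15, known from mesenchyme of limb and trunk, were measured throughout, at 76.9 to 184, 19.7 to 38.4 and 10.1 to 32.0 CPM. In sEVHYP against sEVCTRL 3 of the 13 had an unadjusted P under 0.05, beside 2.45% of all genes, all higher, with a median log2 fold change of 0.49 over the list: Lbx1 (log2 3.94, SE 0.64), Alx4 (2.11, SE 0.53) and Tbx18 (0.63, SE 0.25), with unadjusted P of 0.000168, 0.00327 and 0.0319. Against sEVNORM, where 3.95% of all genes passed, the 3 were Lbx1 (4.99, SE 0.69), Prrx2 (1.63, SE 0.50) and Alx4 (1.27, SE 0.52), and in sEVNORM against sEVCTRL Tbx18 passed alone (0.53, SE 0.23), beside 1.62% of all genes. Alx4 was not high in sEVHYP alone: it stood at 10.4 and 7.65 CPM there, at 7.05 CPM in sEVNORM 2 and at 1.77 to 2.55 CPM in the remaining glands. Lbx1, which is known from migrating limb muscle precursors, stood at 3.57 and 9.80 CPM in sEVHYP and at 0.0443 to 0.593 CPM in the other 6 glands. sEVCTRL 2 was at 0.593 CPM with 10227 CPM of skeletal muscle markers. The study lists LBX-1 among genes of epithelial-mesenchymal transition that rose with sEVHYP in isolated luminal cells by RT-PCR. It saw no effect of sEVNORM on them. Which cells of the whole gland carried Lbx1 was not tested. The adjusted P of Lbx1 with edgeR was 1.00 against sEVCTRL and 0.807 against sEVNORM, and with DESeq2 1 gene of the list had an adjusted P under 0.05 in each of these comparisons.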

How the data were processed

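The 8 libraries were made from polyA RNA of whole mammary glands with a stranded kit. The authors aligned reads to mm10 (GRCm38) with STAR and estimated counts per Ensembl gene with RSEM 1.2.12. The deposited values are these expected counts as whole numbers, without normalization. How they were rounded, and the strand setting, are not given in the sources used here. Symbols and exon lengths came from GENCODE M21. Tests were two-sided quasi-likelihood F-tests of edgeR 4.0.16 under R 4.3.3, with all groups in 1 model and TMM scaling. The edgeR filter (minimum count 10) left 17858 genes. Residual and prior degrees of freedom were 5 and 4.08. Adjustment was Benjamini-Hochberg across these genes. The procedure was tested on simulated data. Groups and replicate numbers came from the sample titles. No pair of libraries agreed within sampling noise.

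Genes were named with full values where they had an unadjusted P under 0.05, the highest or lowest log2 fold change of a comparison, or the highest level per kb in a cluster. From other lists at most 4 genes past that threshold were named, with others for their level. Some genes that meet these rules are not reported here, by name or in the plots, but are included in counts, sums and medians. Members and lists were chosen with earlier results of these data known. Alternatives were DESeq2 1.42.0, other filters and scalings, only the 2 groups compared, the replicate number as a block, a skeletal muscle covariate and each library left out. With 1 sEVHYP library left out, the remaining one was assumed to vary as the other groups do.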

Additional observations from a re-analysis of the deposited data

How the results depend on the processing

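The count of Hox genes with an unadjusted P under 0.05 was low under every setting tried. For sEVHYP against sEVCTRL it was 1, and 0 with the replicate number as a block; with single libraries left out it was 0 to 1. For sEVHYP against sEVNORM it was 2, and 0 with the block, and 1 to 2 with single libraries left out. For sEVNORM against sEVCTRL it was 2, and 1 with DESeq2 size factors, with no filter, with DESeq2 on all libraries or on the 2 groups, with edgeR on the 2 groups, and with the block; it was 0 to 4 with single libraries left out. With the muscle covariate the counts were 1, 2 and 2, but the genes behind them changed. For sEVHYP against sEVCTRL the call was then Hoxa2 in place of Hoxc10, as it was without sEVCTRL 3. Hoxc4 took the place of Hoxc10 against sEVNORM, and Hoxa9 that of Hoxb6 in sEVNORM against sEVCTRL. The cause of these shifts was not tested. Whether the replicate numbers pair the libraries was not settled. Same-numbered libraries correlated at -0.416 to 0.369 after removal of group means, and the other pairs at -0.369 to 0.467. The deviations of the 2 sEVHYP libraries mirror each other, so these values cannot decide it. No named log2 fold change changed sign. The mean posterior share moved with its definition, in the order sEVCTRL, sEVNORM, sEVHYP: 17.0%, 18.5% and 21.1% from CPM without length, 11.98%, 12.5% and 16.4% for groups 10 to 13 alone, 16.3%, 17.4% and 20.2% per kb of the longest coding transcript, and 11.8%, 12.8% and 12.6% without Hoxc10. The share itself was chosen with results of these data known, and the last 2 definitions were added after the data were seen. With single libraries left out the means were 19.1% to 19.3%, 19.9% to 20.5% and 23.6% to 24.0%. With 2 or 3 libraries a group, a change of the size seen for most Hox genes could not be told from the spread, and genes with few counts, such as Hoxa2 in sEVHYP (13 and 17 counts), were the least precise.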
